A study of Homo sapiens with 8 samples.

Results

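SLC25A17 and 5 other genes of the peroxisome (ABCD3, PEX3, PEX5, PEX14 and PEX19) were chosen by name, with earlier results of these data known, the small SLC25A17 exon described below included. They are 6 of the 21597 genes with a read on an annotated splice junction, and the data on them are the 245 junctions with reads, of 654181 in all, that match an intron of these genes or share a splice site with one. All libraries came from HEK293, an established human cell line derived from embryonic kidney. The groups were DMSO, the solvent control, and 25 nM LMI070, the small molecule also known as branaplam, with 4 libraries in each group and no other difference given between them. Replicates 9 to 12 are DMSO and 13 to 16 are LMI070; replicates 11, 12, 13 and 16 were sequenced in lane 7 and replicates 9, 10, 14 and 15 in lane 8, so that each lane held both groups. The length of treatment is not given in the sources used here. Each library held 20369466 to 36131054 junction crossings by uniquely mapped reads, with a read over several junctions counted at each. The labels do not state that replicates are separate cultures, and each p measures only the spread between these libraries, which may be technical. All 7 genes of a HEK293 identity list (NEFL, NEFM, INA, VIM, PAX2, LHX1 and EYA1) passed the filter on low counts, with a summed level of 741 to 783 CPM (spliced reads scaled to a common library size) in DMSO and 739 to 776 CPM in LMI070. Most of this sum was VIM, with a mean of 699 CPM in DMSO and 694 CPM in LMI070. The others ran from PAX2 (0.564 and 0.677 CPM) to NEFL (38.1 and 38.9 CPM). The summed level of 6 fibroblast genes was 20.1 to 24.8 CPM in DMSO and 23.2 to 31.0 CPM in LMI070, and lists for blood, keratinising epithelium and hepatocytes each summed to 1.30 CPM or less in every library, with HBB, SPRR1B, APOB and SERPINA1 at 0 reads.

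Peroxisomes are organelles bounded by a single membrane that shorten very long and branched fatty acids, begin the synthesis of ether lipids and break down hydrogen peroxide. Their enzymes are made in the cytosol and carried in by the receptor PEX5, which docks on PEX14, while their membrane proteins are held soluble by the chaperone PEX19 and inserted where PEX3 sits. SLC25A17 (also called PMP34) is a carrier of the peroxisomal membrane for coenzyme A and related nucleotide cofactors, and ABCD3 (PMP70) is the transporter that brings in branched acyl-CoAs and bile acid intermediates. LMI070 was developed to raise the inclusion of a mostly skipped exon of SMN2 and is known to favour weak 5′ splice sites that follow a GA at the end of the exon.

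The results turn on a small exon inside intron 2 of SLC25A17, and its sequence is shown with its longer form and with an annotated exon of PEX5 and one of PEX19 that were included in only part of the RNA. A further PEX5 exon of 195 nt, with almost no reads that enter it, is described with its values and its sequence is not shown. In the first sequence the capitals mark the stop codon that the SLC25A17 reading frame meets and the last bases of the exon; in the second they mark the same exon end with the first bases after it; in the other two they mark the last bases of the exon. The sequences are those of the GENCODE 29 transcripts on GRCh38, and the 83-nt form is shown because it runs through the 5′ splice site of the 53-nt form.
SLC25A17 53-nt exon, chr22:40797284-40797336, minus strand: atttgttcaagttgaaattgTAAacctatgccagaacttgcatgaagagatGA
SLC25A17 83-nt exon, chr22:40797254-40797336, minus strand: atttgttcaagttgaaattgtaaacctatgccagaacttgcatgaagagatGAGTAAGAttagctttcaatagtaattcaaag
PEX5 111-nt exon, chr12:7202241-7202351, plus strand: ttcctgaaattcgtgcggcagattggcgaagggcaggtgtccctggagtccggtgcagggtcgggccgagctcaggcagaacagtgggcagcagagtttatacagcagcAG
PEX19 110-nt exon, chr1:160283530-160283639, minus strand: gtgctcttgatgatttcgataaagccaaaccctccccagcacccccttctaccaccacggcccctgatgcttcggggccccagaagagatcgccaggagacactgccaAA

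Both SLC25A17 forms are annotated in GENCODE 29 only in transcripts of the nonsense-mediated decay class, RNA marked for degradation because of an early stop codon, and the principal transcript, with 8 introns and 307 codons, skips the exon. The 53-nt form is not a multiple of 3 in length. The reading frame of the principal transcript enters the exon after 115 coding bases and meets TAA at base 21 of the exon, after 45 codons, with 30 bases of the exon still to come. The 5′ splice site of the 53-nt form reads TGAGTAAGA, with the exon ending in TGA. An end in GA was found in 1.84% of the 16641 annotated exons tested that had a sequence and in 20 of the 30 annotated exons called higher in LMI070, and an end in TGA in 0.589% and in 2 of 30. The PEX5 exon shown ends in CAG and the PEX19 exon in AAA.

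Reads that enter the SLC25A17 exon were more frequent in LMI070 than in DMSO in every library. The junction from the upstream exon into it (chr22:40797337-40799022) had 1, 1, 2 and 1 reads in DMSO replicates 9 to 12 and 7, 12, 4 and 9 reads in LMI070 replicates 13 to 16. The junction out of the 53-nt form (chr22:40794581-40797283) had 1, 0, 2 and 1 reads in DMSO and 4, 6, 2 and 4 in LMI070. The groups did not overlap for the way in, and they met at 2 reads for the way out. The junction out of the 83-nt form had 1 read in all DMSO libraries together and 3 in all LMI070 libraries, so the 53-nt form carried most of the reads. The junction that skips both forms had 116, 129, 120 and 118 reads in DMSO and 149, 112, 105 and 84 in LMI070.

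Usage sets the reads of a junction against all reads at either of its splice sites. For the junction into the exon it was 0.781%, 0.699%, 1.54% and 0.794% in the DMSO libraries, against 4.32%, 9.30%, 3.67% and 9.38% in the LMI070 libraries. The LMI070 libraries lay apart from DMSO but fell into a higher pair (replicates 14 and 16) and a lower pair (13 and 15), and each pair held a library of each lane. Usage rose from 0.953% ± 0.392 (SD, n = 4) to 6.67% ± 3.10 (SD, n = 4), a change of 5.71 percentage points, with an edgeR adjusted p of 0.0427 over all 129495 junctions tested. The log2 odds ratio was 2.74 (SE 0.68), and the change was 5.68 points within lane 7 and 5.75 points within lane 8. With reads pooled over a group, 5 of 527 reads used the junction in DMSO (0.949%, exact Clopper-Pearson 95% interval 0.309 to 2.20) and 32 of 496 in LMI070 (6.45%, interval 4.45 to 8.99). These intervals cover counting error only, and the reads carry no molecular identifiers.

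That was 1 junction called of the 77 tested in the 6 genes, all others missing the threshold, beside 0.144% of all junctions tested (0.0888% higher and 0.0548% lower). The junction reached the minimum of 20 reads only through LMI070 (5 reads in DMSO and 32 in LMI070), which favoured a rise. Neither the call nor the count of 1 is taken as support. The call rests on few reads and was lost in 9 of the 13 alternatives that could test it: the edgeR adjusted p was 0.934 without a filter on low counts, 0.106 to 0.382 when any 1 DMSO library was left out, 0.999 without LMI070 replicate 14 and 0.339 without replicate 16, and the DESeq2 adjusted p was 0.947. It held with multiply mapped reads added, without the lane term, and without LMI070 replicate 13 or 15.

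**Figure D1:**
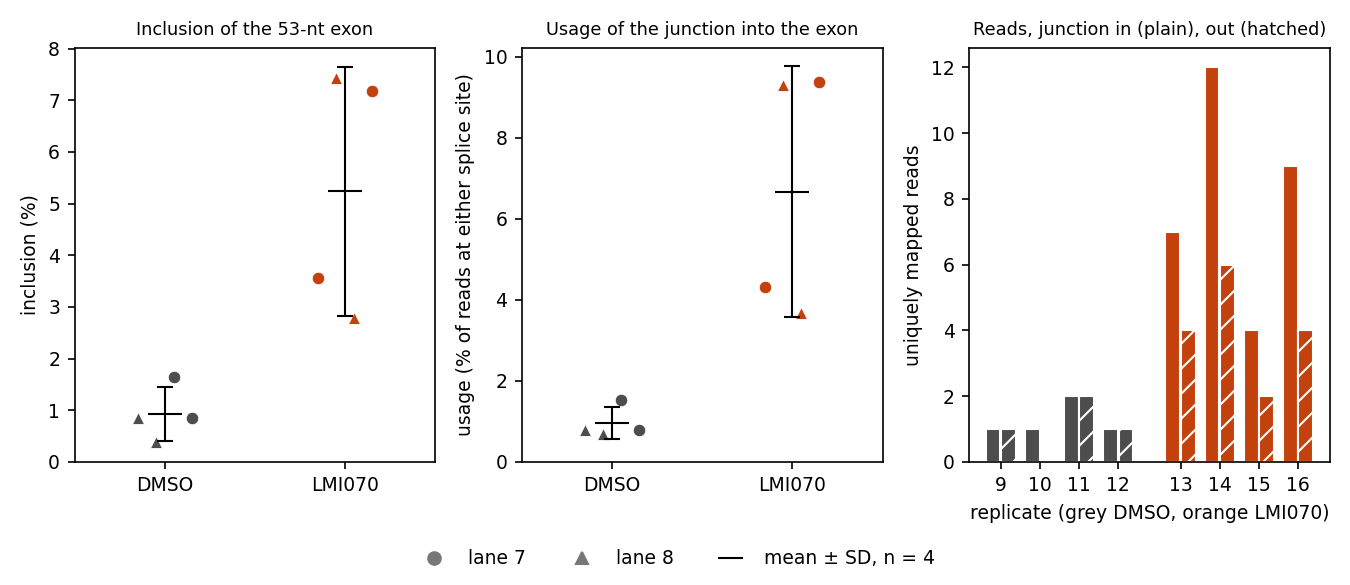
The left panel plots inclusion of the 53-nt SLC25A17 exon in percent, the middle panel the usage of the junction into it in percent, and the right panel the uniquely mapped reads of the junctions into (plain bars) and out of (hatched bars) the 53-nt exon, by library. Circles are lane 7, triangles lane 8, and black bars give mean ± SD (n = 4): all 4 LMI070 libraries lie above all 4 DMSO libraries in the first and second panel.

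Inclusion of an exon was taken as the mean of its inclusion junctions over that mean plus the skipping reads. For the 53-nt exon it was 0.855%, 0.386%, 1.64% and 0.840% in the DMSO libraries, against 3.56%, 7.44%, 2.78% and 7.18% in the LMI070 libraries, so the groups did not overlap. The means were 0.930% ± 0.520 (SD, n = 4) and 5.24% ± 2.41 (SD, n = 4). The difference of 4.31 points did not pass the threshold: the edgeR p was 3.87e-04 and the adjusted p was 0.0895, the exon being number 119 by p of 27548 exons tested. The exon reached the minimum of 10 inclusion reads only through LMI070, which favoured a rise, so nothing is read from this rank. The difference was 4.13 points within lane 7 and 4.49 points within lane 8. Without LMI070 replicate 15, the library with the lowest inclusion of its group, the adjusted p was 0.0498 and the difference 5.13 points; without replicate 14 they were 0.576 and 3.58 points. Among the 100 exons called higher in LMI070 over all genes the median change was 6.84 points, and 36 of them changed by less than 4.31 points. The 83-nt form, which shares the junction into the exon and so most of its reads, had a mean inclusion of 0.612% ± 0.216 without and 3.91% ± 1.61 with LMI070 (SD, n = 4 each), with an edgeR adjusted p of 0.236. The junction out of this form had only 1 read in DMSO and 3 in LMI070, so its value is not the share of RNA that holds it.

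The other SLC25A17 exons did not differ between the groups at the threshold. Of 14 candidate exons 6 had enough reads to be tested, and none was called, beside 0.388% of all exons tested; 2 had an unadjusted p under 0.05, beside 5.15%. Groups did not overlap for the same 2, the 53-nt and 83-nt forms of the small exon, beside 3.5% of all exons. Both forms reached the minimum of 10 inclusion reads only through LMI070, so nothing is read from these counts. Inclusion of the constitutive 152-nt exon (chr22:40792525-40792676) was 99.3% ± 0.584 in DMSO and 99.1% ± 0.844 in LMI070, and that of the 83-nt exon of the 3′ part of the gene (chr22:40773937-40774019) was 99.0% ± 0.525 and 98.9% ± 0.118 (SD, n = 4 each). The largest difference downward in the gene was that of the junction that skips the small exon, with a usage of 90.8% ± 1.5 in DMSO and 87.3% ± 4.93 in LMI070 and an edgeR adjusted p of 0.977. The change of -3.57 points was -1.94 points without LMI070 replicate 14 and -5.46 points without replicate 15.

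Another annotated junction shares the 5′ splice site upstream of the small exon and passes over the next 2 exons of the principal transcript, joining the end of intron 4 (chr22:40779126-40799022). It had 8, 12, 8 and 6 reads in DMSO and 6, 4, 0 and 3 reads in LMI070. Its usage was 2.96%, 4.03%, 2.64% and 2.29% in the DMSO libraries, against 1.63%, 1.42%, 0% and 1.42% in LMI070, so every LMI070 library was below every DMSO library. The 0 in replicate 15 is 0 of 240 reads. The means were 2.98% ± 0.750 and 1.12% ± 0.752 (SD, n = 4 each), with an edgeR p of 0.0124 and an adjusted p of 0.977. With the junctions into and out of the 53-nt exon it made 3 junctions of the 77 whose groups did not overlap, beside 2.45% of all junctions tested. The junctions into and out of the exon are the same event, and they reached the minimum of 20 reads only through LMI070 (5 reads in DMSO and 32 in LMI070 for the way in, 4 and 16 for the way out), so nothing is read from this count.

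The level of each gene was taken as its reads on annotated junctions, scaled to CPM, with a read over several junctions counted at each. In bulk libraries, fewer cells with an RNA and less of it per cell cannot be told apart. For SLC25A17 it was 57.0, 57.2, 60.2 and 61.2 CPM in DMSO replicates 9 to 12 and 52.0, 53.7, 55.2 and 53.4 CPM in LMI070 replicates 13 to 16. All LMI070 libraries lay below all DMSO libraries. The means were 58.9 ± 2.10 and 53.6 ± 1.35 CPM (SD, n = 4 each), a log2 fold change of -0.14 (SE 0.05) with an edgeR p of 0.0119 and an adjusted p of 0.366. The log2 fold change was -0.20 within lane 7 and -0.07 within lane 8, and the interaction of treatment with lane had an edgeR adjusted p of 0.517. None of the 6 genes was called on its level, beside 0.126% of the 14250 genes tested (0.0211% higher and 0.105% lower). SLC25A17 and PEX14 were the 2 of 6 whose groups did not overlap, beside 4.17% of all genes, and each had an unadjusted p under 0.05, beside 10.4% of all genes.

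The lower value of SLC25A17 was seen along most of the gene. The mean CPM of LMI070 was below that of DMSO in 8 of its 8 introns, with log2 ratios of -0.23 for intron 1, -0.21 for intron 2, -0.21 for intron 3, -0.11 for intron 4, -0.21 for intron 5 and -0.20 for intron 6. The last 2 introns stood at -0.04 and -0.003, less than the spread between libraries. Intron 4 differed by about that spread, with 5.92 ± 0.456 CPM in DMSO and 5.48 ± 0.435 CPM in LMI070 (SD, n = 4 each). Intron 1, which lies before the small exon, had 6.20 ± 0.484 CPM in DMSO and 5.28 ± 0.371 CPM in LMI070, and intron 8 had 8.43 ± 0.951 and 8.41 ± 0.395 CPM (SD, n = 4 each). Single introns were not tested for a difference in level.

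**Figure D2:**
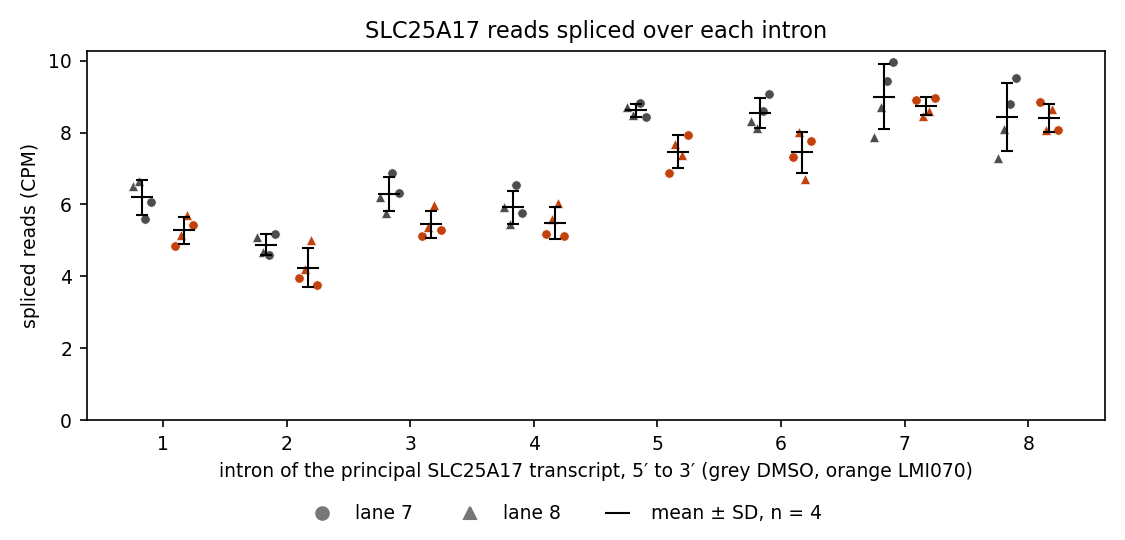
Reads spliced over each of the 8 introns of the principal SLC25A17 transcript, in CPM, with DMSO in grey and LMI070 in orange (circles lane 7, triangles lane 8, black bars mean ± SD, n = 4). Group means are lower in LMI070 in introns 1 to 6 and nearly equal in intron 8.

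ABCD3, the other membrane transporter, did not differ at the threshold. Its level was 264, 271, 260 and 281 CPM in DMSO and 245, 268, 281 and 244 CPM in LMI070. The LMI070 libraries of lane 7 (replicates 13 and 16) were the lowest of all 8, while those of lane 8 lay within the DMSO range. The log2 fold change was -0.05 (SE 0.04; edgeR adjusted p = 0.692), with -0.14 in lane 7 and 0.04 in lane 8 (interaction, edgeR adjusted p = 0.178). Its 22 introns gave log2 ratios from -0.23 to 0.02, of which 19 were below 0. Of 26 junctions tested in ABCD3, the largest rise in usage was 5.81% ± 1.81 to 7.91% ± 2.26 (SD, n = 4 each) for the annotated junction chr1:94478316-94478523, and the largest fall was 94.0% ± 1.81 to 92.0% ± 2.36 for chr1:94478316-94480463, which starts at the same site. Neither differed beyond the spread between libraries (edgeR adjusted p = 0.977 for each). The single ABCD3 exon tested, an unannotated 147-nt stretch at chr1:94481409-94481555, had an inclusion of 0.840% ± 0.201 without and 1.07% ± 0.237 with LMI070 (SD, n = 4 each).

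The 2 genes that place membrane proteins also gave overlapping groups. PEX19, the chaperone, had 63.2, 60.1, 64.2 and 67.0 CPM in DMSO and 58.2, 61.5, 62.1 and 61.4 CPM in LMI070, a log2 fold change of -0.07 (SE 0.05; edgeR adjusted p = 0.671). PEX3, its docking protein in the membrane, had 58.8, 54.0, 49.7 and 59.0 CPM in DMSO and 50.3, 55.6, 59.0 and 48.0 CPM in LMI070, a log2 fold change of -0.06 (SE 0.06; edgeR adjusted p = 0.770). For both genes the log2 fold change was below 0 within lane 7 (-0.13 and -0.14) and near 0 within lane 8 (0.006 and 0.02). Of the 16 annotated PEX19 introns, 6 also belong to AL139011.2, a gene that overlaps it on the same strand, and reads on these were counted for both.

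Neither of the 2 genes of matrix protein import passed the threshold. PEX5, the receptor, had 56.6, 55.5, 61.4 and 57.7 CPM in DMSO and 58.5, 57.9, 54.9 and 61.6 CPM in LMI070, a log2 fold change of 0.01 (SE 0.05; edgeR adjusted p = 0.961). PEX14, the docking protein, had 22.1, 22.4, 23.8 and 21.8 CPM in DMSO and 25.1, 24.1, 24.5 and 26.6 CPM in LMI070. Every LMI070 library of PEX14 was above every DMSO library. The means were 22.5 ± 0.899 and 25.1 ± 1.11 CPM (SD, n = 4 each), a log2 fold change of 0.15 (SE 0.06), with an edgeR p of 0.0251 and an adjusted p of 0.435; it was 0.18 within lane 7 and 0.13 within lane 8. Along PEX14 the log2 ratio was between 0.21 and 0.28 in introns 4 to 7 and between -0.14 and 0.04 in introns 1, 2, 3 and 8.

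**Figure D3:**
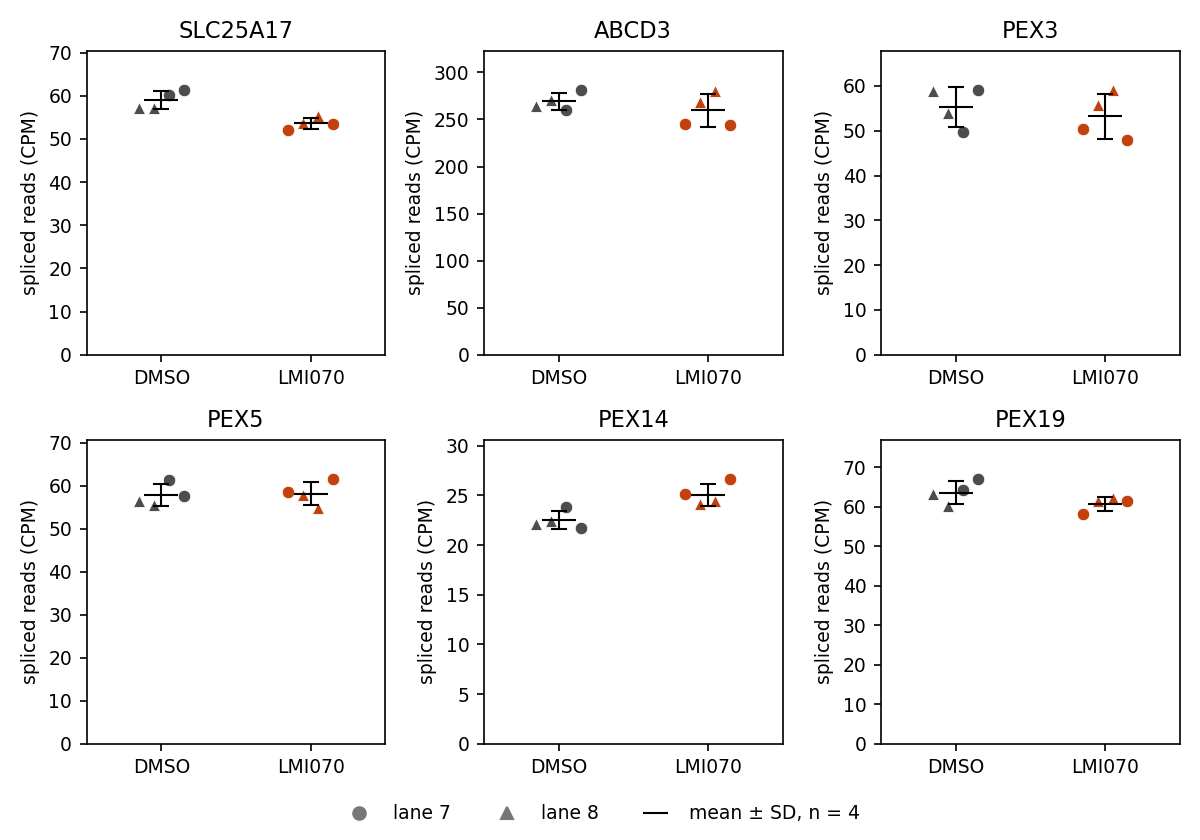
Spliced reads of each of the 6 genes in CPM, by library (grey DMSO, orange LMI070, circles lane 7, triangles lane 8, black bars mean ± SD, n = 4). The groups are separate for SLC25A17 (lower in LMI070) and PEX14 (higher in LMI070) and overlap for ABCD3, PEX3, PEX5 and PEX19.

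Levels can be set against each other only per intron, as the median CPM over the introns of the principal transcript. In DMSO this level was 12.5 ± 0.337 for ABCD3, 9.02 ± 0.680 for PEX19, 7.35 ± 0.343 for SLC25A17, 5.09 ± 0.298 for PEX3, 3.64 ± 0.319 for PEX5 and 3.08 ± 0.217 for PEX14 (CPM per intron, SD, n = 4). The order was the same in LMI070, at 11.8 ± 0.501, 8.18 ± 0.431, 6.40 ± 0.283, 4.80 ± 0.358, 3.68 ± 0.204 and 3.35 ± 0.110 CPM per intron. In both groups each gene differed from its neighbour in that order by more than the SD of either. The PEX5 median counts introns 1 and 17 of its principal transcript, which had 0 reads in every library and so lower it.

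PEX5 is known in a longer and a shorter form, and the longer one, which carries the 111-nt exon, also serves the import route that uses PEX7. Inclusion of this exon was 28.9%, 36.7%, 39.2% and 27.6% in the DMSO libraries, against 32.6%, 32.2%, 38.3% and 27.5% in LMI070. Both groups spanned nearly the same range, with means of 33.1% ± 5.70 and 32.7% ± 4.42 (SD, n = 4 each; edgeR adjusted p = 1.00). The difference was -3.35 points in lane 7 and 2.48 points in lane 8, so its sign turned between lanes.

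A 195-nt exon at the 5′ end of PEX5 (chr12:7190022-7190216) stood at 58.5%, 51.6%, 47.4% and 60.0% in DMSO and 70.3%, 60.0%, 52.2% and 78.3% in LMI070. The LMI070 libraries of lane 7 were the highest and those of lane 8 lay within the DMSO range. The means were 54.4% ± 5.92 and 65.2% ± 11.4 (SD, n = 4 each), a difference of 10.8 points that was 20.6 points in lane 7 and 1.04 points in lane 8, with an edgeR p of 0.150 and an adjusted p of 1.00. The junction out of this exon had 249 reads over all libraries and the junction into it 4, so the value rests almost wholly on the former. Intron 1 of the principal transcript, which ends at this exon, had 0 reads in every library. The inclusion value averages a nearly unread junction with a read one, so it is not the share of RNA that holds the exon. The largest rise and fall in usage among the 14 PEX5 junctions tested lie at this end: 65.6% ± 7.60 to 74.1% ± 10.2 for chr12:7190217-7190361 and 28.1% ± 3.37 to 20.4% ± 7.79 for chr12:7189751-7190361 (SD, n = 4 each; edgeR adjusted p = 0.977 for each). For the first of these the difference was 19.04 points in lane 7 and -2.06 points in lane 8.

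The 110-nt exon of PEX19, which lies between introns 1 and 2, was included at 86.7%, 90.9%, 92.1% and 92.0% in DMSO and 92.3%, 93.1%, 89.9% and 90.8% in LMI070. The groups overlapped, with means of 90.4% ± 2.51 and 91.5% ± 1.44 (SD, n = 4 each; edgeR adjusted p = 1.00). In PEX19 the largest rise in usage was 88.8% ± 2.57 to 90.8% ± 1.21 for intron 1 and the largest fall 98.7% ± 0.385 to 97.5% ± 0.796 for intron 5 (edgeR adjusted p = 0.977 for each). In PEX3 these were 96.1% ± 1.41 to 97.1% ± 1.27 for intron 7 and 99.1% ± 0.748 to 98.3% ± 0.987 for intron 2, and in PEX14 they were 90.3% ± 1.71 to 93.1% ± 5.59 for intron 3 and 9.05% ± 1.90 to 6.52% ± 5.0 for an unannotated junction from the same 5′ splice site (chr1:10536298-10541051). Both PEX14 changes rest on LMI070 replicate 15, with 54 of 54 and 0 of 54 reads: they were 2.74 and -2.54 points in all libraries, 0.437 and -0.366 points without it, and 4.98 and -4.41 points without replicate 14. For PEX19 intron 1 the change was 2.02 points and 0.768 points without DMSO replicate 9. All of these groups overlapped, and no exon of PEX14 had enough reads to be tested.

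**Figure D4:**
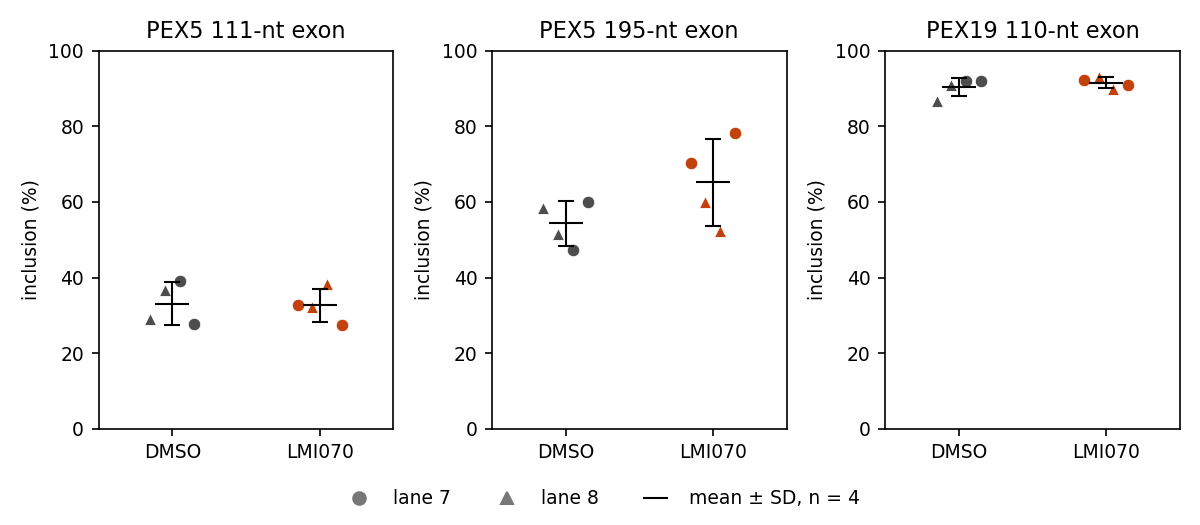
Inclusion in percent of the annotated exons of PEX5 and PEX19 with a mean between 5% and 95%, by library (grey DMSO, orange LMI070, circles lane 7, triangles lane 8, black bars mean ± SD, n = 4). The groups overlap in all 3 panels, and for the 195-nt exon the 2 highest libraries are the LMI070 libraries of lane 7. Almost no reads enter the 195-nt exon, so its value is not the share of RNA that holds it.

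Over all 6 genes, 15 of 89 candidate exons were tested and none was called higher or lower, beside 0.363% and 0.0254% of all exons. With a change of at least 10 points also required, no exon and no junction of the 6 genes was called, beside 0.149% of all exons and 0.0664% of all junctions. Reads on unannotated junctions made up 0.273% of the junction reads of PEX19, 0.411% to 0.523% of those of SLC25A17, ABCD3, PEX3 and PEX5, and 1.75% of those of PEX14.

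Other genes of the organelle were taken from lists by function, 72 genes outside the 6, of which 63 had enough reads. None was called, in edgeR; 8 were lower and 2 higher in LMI070 at an unadjusted p under 0.05, beside 4.67% and 5.73% of all genes tested. DESeq2 and edgeR without a low-count filter each called 1, beside 37 of 14250 and 272 of 21597 genes over all. The log2 fold change was below 0 for 46 and above 0 for 17, with a median of -0.05 beside -0.002 over all genes tested, of which 7256 of 14250 were below 0. Within lane 7 the same genes gave 47 below and 16 above 0 (median -0.07), and within lane 8 they gave 33 below and 30 above (median -0.002), nearly as many. The counts for each list that follow are from both lanes together.

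The smallest p belonged to AGPS, the enzyme that makes the ether bond of ether lipids, with 215 to 232 CPM in DMSO and 191 to 199 CPM in LMI070. Its log2 fold change was -0.20 (SE 0.04), with an edgeR p of 7.86e-05 and an adjusted p of 0.0589, and it was -0.22 in lane 7 and -0.17 in lane 8. It is the gene called by DESeq2 (adjusted p = 0.00332), by edgeR without the filter (adjusted p = 0.00314) and by edgeR within lane 8 (adjusted p = 2.06e-04). All 5 tested genes of ether lipid synthesis had a log2 fold change below 0, the smallest being that of FAR1, which makes the fatty alcohol, at -0.02.

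Among other peroxins, 8 of 11 tested genes were below 0, with a median of -0.05. PEX7, the receptor that imports matrix proteins with the second kind of targeting signal, had the lowest value of those with 100 reads or more per library on average, with 25.7 ± 0.917 CPM in DMSO and 23.7 ± 1.96 CPM in LMI070 (SD, n = 4 each; log2 fold change -0.11, edgeR adjusted p = 0.547). PEX11A, of the family that acts in division of the organelle, had the highest, at 0.14 (edgeR adjusted p = 0.724). Among other membrane transporters and channels, 3 of 5 were below 0, and those with 100 reads or more ran from SLC27A2, an acyl-CoA synthetase, at -0.17 to PXMP2, a channel-forming membrane protein, at 0.04.

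In peroxisomal beta-oxidation 10 of 13 tested genes were below 0, with a median of -0.06. DECR2, a reductase of unsaturated acyl-CoAs, was lowest at -0.20, and ACAA1, the thiolase of the pathway, highest at 0.18 (edgeR adjusted p = 0.584 and 0.438). In alpha-oxidation both genes were below 0, PHYH at -0.05 and HACL1 at -0.13. Among peroxide and other matrix enzymes 7 of 10 were below 0, from EPHX2, the soluble epoxide hydrolase, at -0.16 to NUDT19, which cleaves coenzyme A, at 0.15. In division and turnover of the organelle 6 of 7 were below 0, from the ubiquitin ligase TRIM37 at -0.11 to the deubiquitinase USP30 at 0.01. In coenzyme A synthesis and its mitochondrial carriers 5 of 10 were below 0, from PPCS at -0.14 to COASY, the enzyme of the last steps, at 0.16.

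The count of list genes called was not the same in the 2 lanes. In edgeR fits within a lane, 4 of 63 list genes were called in lane 7 (ACAA1, HACL1, GNPAT and COASY) and 1 of 63 in lane 8 (AGPS). Over all genes, 666 of 14271 were called in lane 7 and 47 of 14348 in lane 8. Nothing about the lists is read from these counts. The log2 fold change was 0.38 in lane 7 and -0.02 in lane 8 for ACAA1. Single libraries also moved the values of these lists by over 1.5 times. Without DMSO replicate 12 the log2 fold change was 0.093 for ACAA1, 0.081 for COASY, -0.093 for SLC27A2 and -0.32 for DECR2, and without DMSO replicate 11 it was -0.093 for DECR2 and -0.079 for PPCS. Without LMI070 replicate 13 it was 0.12 for ACAA1, -0.079 for HACL1, -0.083 for PPCS and 0.21 for PEX11A, and without replicate 14 it was 0.073 for PEX11A. GNPAT, the acyltransferase that starts ether lipid synthesis, is outside the naming rule and was named after its value was seen.

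**Figure D5:**
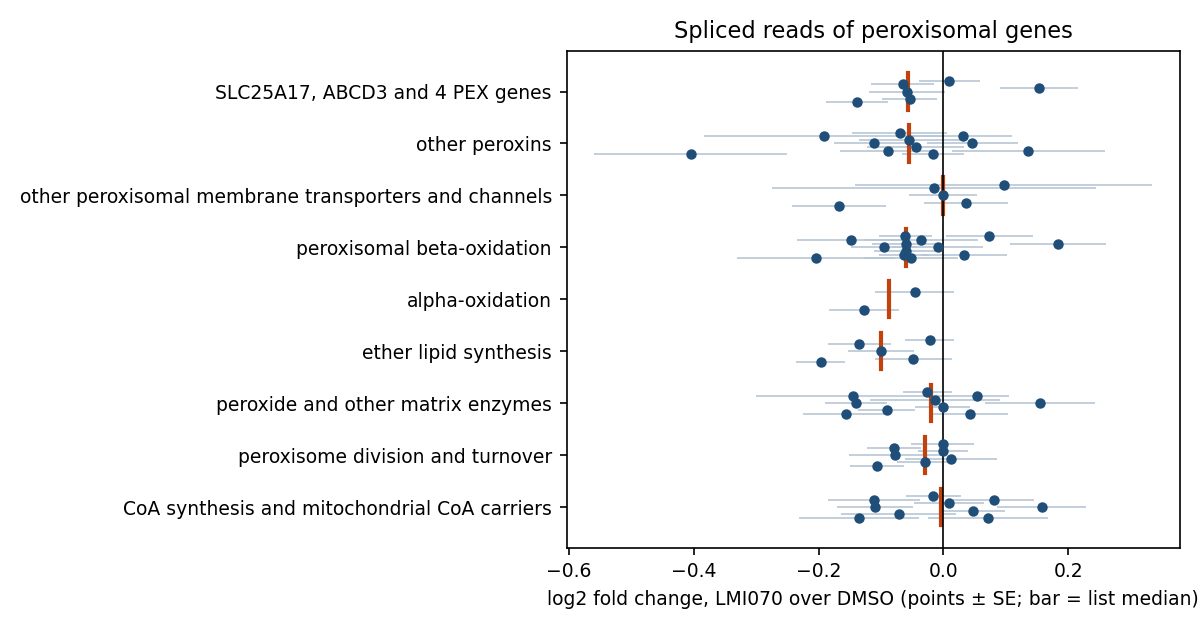
Log2 fold change in spliced reads, LMI070 over DMSO, of each tested gene in the 6 genes and in each list by function; points are genes with their SE and orange bars are list medians. Most medians lie just below 0, and no gene shown passed the threshold.

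Splicing was tested in the same lists. Of 702 junctions in 62 of these genes none was called, and of 173 exons in 53 genes 1 was called, higher in LMI070, beside 0.363% of all exons. It is an unannotated 78-nt exon at chr5:119457291-119457368 in HSD17B4, the bifunctional enzyme of peroxisomal beta-oxidation. The junction into it had 0 reads in every DMSO library and 7, 3, 6 and 3 reads in LMI070 replicates 13 to 16. The junction out of it had 0 reads in every DMSO library and 2, 2, 3 and 2 in LMI070, so reads of the exon were found in each LMI070 library and in no DMSO library. The exon reached the minimum of 10 inclusion reads only through LMI070 and so had to differ, and the count of 1 supports nothing about the lists. Inclusion in LMI070 was 0.809%, 0.597%, 1.29% and 1.01%, a mean of 0.928% ± 0.296 (SD, n = 4), with an edgeR adjusted p of 0.0146. The 0 in DMSO, beside 1564 skipping reads over the group, allows a share of up to 0.192% (3 counts, for counting error only). The call ended when any 1 DMSO library was left out (edgeR adjusted p = 0.0586 to 0.0786), without the low-count filter (0.463) and with DESeq2 (0.0778), and without LMI070 replicate 13 or 15 the exon had too few reads to be tested. The level of HSD17B4 was 481 CPM in DMSO and 461 CPM in LMI070, a log2 fold change of -0.06 (edgeR adjusted p = 0.592).

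The genes whose log2 CPM followed that of SLC25A17 most closely were IST1 (r = 0.989), which acts in membrane scission, NSL1 (r = 0.985), of the kinetochore, and NAE1 (r = 0.985), of the enzyme that activates NEDD8. These are Pearson correlations over the 8 libraries, out of 14246 genes compared, given as a description; the libraries share the groups, the lanes and the scaling.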

How the data were processed

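The deposited tables hold, for each library, raw counts of uniquely and multiply mapped reads per splice junction, without normalization by the authors; per the submitters' processing notes, the aligner was STAR 2.6.0c and the build GRCh38. Alignment settings and filters are not given in the sources used here. RNA was total RNA depleted of ribosomal RNA, in stranded libraries, per the labels. The genes and lists were chosen with earlier results of these data known; some list genes are not reported here. Unique counts were matched to the introns of GENCODE 29. Cassette exons (3 to 500 nt) needed 10 inclusion and 10 skipping reads in all and 10 reads per library; forms with the same 5′ splice site were counted once, which was settled after a first run. Junctions needed 20 reads in all and 10 at their sites per library. The mean of the inclusion junctions was rounded. edgeR 4.0.16 (R 4.3.3) tested inclusion against skipping, or a junction against others at its sites, by the quasi-likelihood F test, with a coefficient per library and terms for lane and treatment by inclusion; genes by lane and treatment with TMM factors and filterByExpr. Adjusted p-values (Benjamini-Hochberg over all features) under 0.05 were called. A read in an intron of several genes counted for each; 95.9% of annotated reads lay in introns of 1 gene. SE is the log2 value divided by the root of F. Named list genes were those called and the largest rise and fall per list with 100 reads on average; exons were those called or annotated with a mean of 5% to 95%, and junctions those called and the largest change each way per gene. Pairs of libraries within a group gave a chi-square per degree of freedom of 1.92 to 12.9. The lowest were 2 same-lane pairs, LMI070 replicates 14 and 15 (1.92) and DMSO replicates 9 and 10 (1.95). The other same-lane pairs gave 7.20 (DMSO replicates 11 and 12) and 3.73 (LMI070 replicates 13 and 16). Different-lane pairs gave 3.88 to 7.87 in DMSO and 10.6 to 12.9 in LMI070. A read over several junctions counted at each, which raises the chi-square value, so it cannot show that no library repeats another. DESeq2 1.42.0 and the other alternatives are in the closing section. The scripts were tested on simulated data.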

Additional observations from a re-analysis of the deposited data

Results flagged for a closer look

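Among 84 sets of 4 libraries examined for a sample far from its group, 2 were marked, and chance marks about 1 in 20. For the junction into the small SLC25A17 exon, DMSO replicate 11 had a usage of 1.54%, from 2 reads, while the other DMSO libraries had 0.699% to 0.794%, from 1 read each. For the SLC25A17 junction that passes over 2 exons of the principal transcript, LMI070 replicate 15 had a usage of 0% and the other LMI070 libraries 1.42% to 1.63%.

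The effect of treatment on the level differed between lanes, by the edgeR interaction of treatment with lane, for HACL1 (log2 fold change -0.28 in lane 7 and 0.03 in lane 8, adjusted p = 0.0419) and for COASY (0.36 in lane 7 and -0.05 in lane 8, adjusted p = 0.0268). Over all genes this interaction was called for 377 of 14250, and for none of SLC25A17, ABCD3, PEX3, PEX5, PEX14 and PEX19.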

How the results depend on the processing

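No paired analysis was possible because the groups share no replicate number (9 to 12 and 13 to 16). Of 715 values under 21 alternatives, 650 kept their direction and their side of the threshold (or, for counts, stayed within 1.5 times). Among these, PEX11A, DECR2, NUDT19 and PPCS in DESeq2 had no adjusted p and were judged by direction only. The differences of the 53-nt exon from a single junction also had none, and were kept if within the LMI070 SD of the main value. Inclusion of the 53-nt SLC25A17 exon differed by 3.58 to 5.13 points when single libraries were left out, past the threshold only without LMI070 replicate 15, so that 0 to 1 exons of the 6 genes were called. From the junction into the exon alone the difference was 5.85 points, from the junction out of it 2.69 points. The 1 called junction of the 6 genes became 0 without the low-count filter, with DESeq2, in lane 7 alone, in lane 8 alone, with a change of at least 10 points required and without DMSO 12 and LMI070 16 together, and 0 to 1 when single libraries were left out. In lanes alone it had too few reads to be tested, and the cause of the other losses was not tested. List genes called went from 0 to 1 without the filter, 1 with DESeq2, 4 in lane 7 and 1 in lane 8. The level was called for 0 of the 6 genes in every alternative run, and RLE factors turned no sign.

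Some signs turned, for values near 0 and for some larger ones that came from lane 7. In lane 7 alone these were the PEX19 110-nt exon (-0.440 points), PEX11A (-0.016) and PXMP2 (-0.057). In lane 8 alone they were the PEX5 111-nt exon (2.48 points), the PEX5 junction out of the 195-nt exon (-2.06 points, from 8.49 in both lanes), ABCD3 (0.036), PEX19 (0.0060), PEX3 (0.025), ACAA1 (-0.020, from 0.18), HACL1 (0.030, from -0.13), USP30 (-0.10) and COASY (-0.050, from 0.16). Without DMSO 12 and LMI070 16 together they were ABCD3 (0.0018), PEX3 (0.028), PEX5 (-0.011) and USP30 (-0.086). With single libraries left out, ranges that crossed 0 were -2.31 to 1.60 points (PEX5 111-nt exon), -0.115 to 1.67 points (PEX19 110-nt exon), -0.091 to 0.015 (PEX3), -0.0026 to 0.033 (PEX5), -0.0032 to 0.076 (PXMP2) and -0.050 to 0.056 (USP30). Exons called over all genes went from 107 to 63 without the filter, 54 with DESeq2, 44 in lane 7 and 61 in lane 8; junctions from 186 to 109, 97, 88 and 88; genes from 18 to 272, 37, 666 and 47, and to 11 without LMI070 replicate 14 and 12 without replicate 13. With all exon forms kept and with the inclusion mean not rounded, both chosen after the data were seen, the edgeR adjusted p of the 53-nt exon was 0.10 and 0.0755. The few reads on the small exon, 37 in and 20 out, limit these values.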
